A study of Triticum aestivum with 6 samples.

Results

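Chalcone synthase genes were followed in grain RNA of bread wheat (Triticum aestivum) with white or purple grain. The 4 genes described here were chosen by identifier from 107891 genes of the deposited table, because of their counts in these same libraries. TraesCS2B02G048400, TraesCS2A02G527700 and TraesCS2B02G558400 had 0 counts in white grain, and TraesCS4D02G351300 was high in white grain. The contrast between the grain types therefore chose these genes, and their values in it are given as a description with no test. White grain and purple grain each had 3 libraries, all collected 30 days after flowering from plants grown in pots in a climate chamber. No cultivar, treatment or pooling is named in the labels, so grain colour and any other genetic difference between the wheats cannot be told apart.

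Chalcone synthase joins a coumaroyl-CoA unit with malonyl-CoA units to form naringenin chalcone, the first compound of the flavonoid pathway. Flavanones, flavonols, proanthocyanidins and the anthocyanin pigments of purple grain all derive from it. The enzyme belongs to the type III polyketide synthases, a plant family whose close relatives make stilbenes, curcuminoids and other products from the same kind of building blocks. Bread wheat carries A, B and D subgenomes, so most genes occur as a set of similar copies, and reads can be shared between such copies. The level of a single copy is uncertain for that reason.

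The label of chalcone synthase fitted 3 of the 4 genes on both of the table's annotations. TraesCS2B02G048400, TraesCS2A02G527700 and TraesCS2B02G558400 carry KO number K00660, naringenin-chalcone synthase, and are placed in flavonoid biosynthesis. TraesCS4D02G351300 is described as chalcone synthase 8 of Aegilops tauschii, a wild relative of the D subgenome, but carries K17212, a number of the stilbenoid, diarylheptanoid and gingerol pathway. The activity of none of these proteins is established by the table. The comparison between the 3 genes of group 2 chromosomes and the gene on 4D is thus between differently annotated members of the polyketide synthase family.

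Library totals ran from 78660932 to 102868886 counts. Purple replicate 3 stood apart, with a correlation of log2(FPKM + 1) across genes of 0.885 and 0.891 with the other purple libraries, which correlated at 0.945 with each other. Its correlation with the white libraries was 0.836 to 0.864, against 0.723 to 0.822 for the other purple libraries. The labels give grain as the tissue, whereas the protocol names stems and buds. Gliadin and glutenin genes, markers of the starchy endosperm, had counts for 103 of 108 genes and held 8.23% to 21.3% of summed FPKM in every library. Chlorophyll-binding and small Rubisco subunit genes, markers of green tissue, had counts for 67 of 74 genes and held 0.0037% to 0.0364%. In bulk grain, fewer cells of a type and less RNA per cell cannot be told apart.

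A listed 0 need not mean that no read came from the gene. Genes with at least 100 counts in both other libraries of a grain type were checked in the remaining library. Of 37215 to 41224 such genes per library, 7 to 194 were listed at 0 (0.0188% to 0.496%). Only 2 to 26 were listed at 1 to 5 counts. Zeros were thus more frequent than very low counts in every library, so no fold change is given against a group listed at 0.

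TraesCS2B02G048400 lies on chromosome 2B from 24089443 to 24091066 on the plus strand and is described as chalcone synthase 2. It had 0 counts in all white libraries and 610, 293 and 278 counts in purple replicates 1, 2 and 3. In FPKM, the authors' level scaled for gene length and library depth, the purple libraries stood at 3.71, 1.87 and 2.14, a mean of 2.58 ± 0.991 (SD, n = 3). Purple replicate 1 was the highest and the groups did not overlap.

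TraesCS2A02G527700 lies near the other end of its chromosome, on 2A from 747086930 to 747090056 on the plus strand, and is described as chalcone synthase 1. It was listed at 0 in all white libraries and had 113, 489 and 333 counts in the purple ones. Its level was 0.60, 2.75 and 2.24 FPKM in purple replicates 1, 2 and 3, a mean of 1.86 ± 1.12 (SD, n = 3). Here purple replicate 1 was the lowest, and all purple libraries again lay above the white ones.

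TraesCS2B02G558400, the similarly described chalcone synthase 1 gene on chromosome 2B from 752784988 to 752788155 on the plus strand, was listed at 0 in white grain as well. The purple libraries had 78, 349 and 245 counts, or 0.40, 1.90 and 1.61 FPKM, a mean of 1.30 ± 0.795 (SD, n = 3). The order of the purple libraries was that of TraesCS2A02G527700. Both genes have 2 transcripts in the table and span 3127 and 3168 bases, whereas TraesCS2B02G048400 and TraesCS4D02G351300 have 1 transcript each and span 1624 and 1686 bases.

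TraesCS4D02G351300 lies on chromosome 4D from 503175796 to 503177481 on the plus strand. It had 930, 2140 and 2765 counts in white replicates 1, 2 and 3 and 0, 0 and 108 counts in the purple libraries. In FPKM the white libraries stood at 6.89, 15.4 and 18.5, a mean of 13.6 ± 6.01, and the purple ones at 0, 0 and 0.781, a mean of 0.260 ± 0.451 (SD, n = 3 each). The groups did not overlap, and purple replicate 3 alone of the purple libraries had counts. Without purple replicate 3, both remaining purple libraries are listed at 0.

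**Figure D1:**
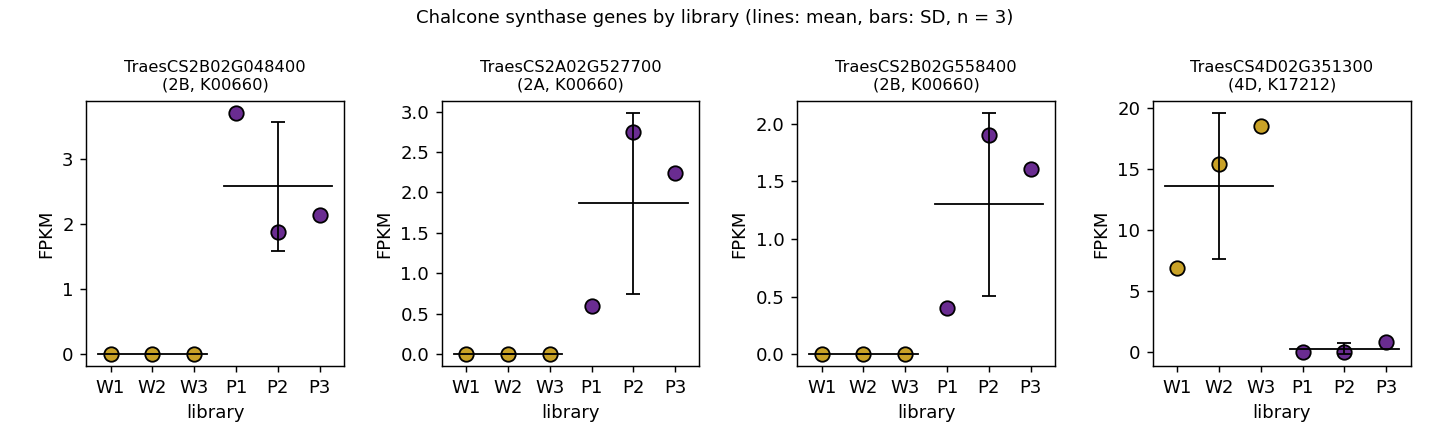
Level of each gene in FPKM (vertical axes, each with its own scale) in the 3 white (W1 to W3) and 3 purple (P1 to P3) libraries, with the mean as a line and the SD as a bar. The 3 genes of chromosomes 2A and 2B are at 0 in all white libraries, and the gene on 4D is at 6.89 to 18.5 FPKM in white grain and at 0, 0 and 0.781 in purple grain.

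In purple grain the order of mean levels was TraesCS2B02G048400, TraesCS2A02G527700, TraesCS2B02G558400 and TraesCS4D02G351300. No neighbours in that order differed beyond their spread between libraries. TraesCS2A02G527700 was nevertheless above TraesCS2B02G558400 within each purple library, with ratios of FPKM of 1.5, 1.45 and 1.4. Likewise TraesCS2B02G558400 was above TraesCS4D02G351300 within each, at 0.40, 1.90 and 1.61 FPKM against 0, 0 and 0.781. TraesCS2B02G048400 was 6.18 times TraesCS2A02G527700 in purple replicate 1 and 0.682 and 0.954 times in replicates 2 and 3, so the chalcone synthase 2 and chalcone synthase 1 genes did not keep a fixed ratio. In white grain only TraesCS4D02G351300 had counts.

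Of all 48492 tested genes, whose average over the 6 libraries reached 0.5 FPKM, 0.606% had 0 counts in every white library and counts in every purple library, as 3 of the 4 genes did by choice. All white libraries lay above all purple ones for 19.9% of tested genes, and all purple libraries above all white ones for 13.3%. Nothing is read from these counts of members, since the contrast chose them. The nearest gene outside the rule was TraesCS2D02G530600, which had 12 counts in white replicate 2 and 0 in the other white libraries.

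The chalcone synthase family, taken by description or KO number K00660, held 69 genes, of which 41 had 0 counts in all 6 libraries. Besides the 4 chosen genes, 24 of the other 65 had counts and 6 were tested. The description also takes in a few relatives: TraesCS7B02G038200 carries K01859, the number of chalcone isomerase, and TraesCS2A02G315500 is described as a deoxychalcone synthase with K19642. By edgeR's quasi-likelihood test over all tested genes (called where the adjusted p was under 0.05 and the log2 difference 1 or more), 0 of the 6 other tested genes were higher and 0 were lower in purple grain, where 2.87% and 2.32% of all tested genes were called. Before adjustment 2 lay above and 2 below 0 at a p under 0.05, where 14.2% and 12.6% of all tested genes did. DESeq2 called 2 higher and 0 lower, beside 9.41% and 6.2% of all tested genes. Without purple replicate 3, edgeR called 1 of them lower. Their median log2 difference was 1.94, beside 0.02 over all tested genes, but the 6 genes lay on both sides of 0. The median was 3.95 over the 3 tested others with K00660 and 0.51 over the 5 with K00660 or K17212. TraesCS2A02G035300 was fitted against purple libraries all listed at 0. TraesCS7B02G038200 had 0, 0.230 and 0.172 FPKM in white and 2.34, 0.993 and 0.528 in purple libraries, with no overlap and an edgeR adjusted p of 0.144 (0.0299 by DESeq2, the lowest of 12 alternatives that reached 0.289).

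Copies with the same description lie at similar positions on chromosomes 2A, 2B and 2D, which form homoeologous group 2. The table does not state which genes are homoeologues, so the sets below rest on description, KO number and position and were formed after the values were seen. In the chalcone synthase 1 set, TraesCS2D02G530600 (2D, 617051125 to 617054041) joins the 2 chosen genes on 2A and 2B. White libraries had 0, 12 and 0 counts of it and purple libraries 84, 416 and 248, with means of 0.024 ± 0.0418 and 1.43 ± 0.923 FPKM (SD, n = 3 each). Every purple library lay above every white one, and the log2 difference of 6.0 ± 1.49 (SE) missed the threshold (edgeR adjusted p = 0.0685, and between 0.000160 and 0.156 in 12 alternatives). DESeq2 and limma at a pseudocount of 0.1 called it. The 3 copies kept nearly constant shares in the purple libraries. The 2A copy held 39.8% to 42.0% of the set's summed FPKM, the 2B copy 27.6% to 29.4% and the 2D copy 29.4% to 32.6%.

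The chalcone synthase 2 set did not keep such shares. As listed, its 2A copy had counts in white grain only, its 2B copy in purple grain only and its 2D copy in both. TraesCS2A02G035300 (2A, 15394765 to 15396518) had 409, 106 and 0 white counts and was listed at 0 in all purple libraries, at 1.22 ± 1.52 FPKM in white grain (SD, n = 3). Its edgeR adjusted p was 0.136, with 12 alternatives between 0.0528 and 0.290, and since white replicate 3 is also listed at 0, the groups overlapped. TraesCS2B02G048400, of the chosen genes, was counted in purple grain only. TraesCS2D02G034500 (2D, 13421320 to 13422996) had 34, 0 and 0 counts in white and 522, 163 and 0 in purple libraries, a log2 difference of 3.95 ± 2.32 (SE) that missed the threshold (edgeR adjusted p = 0.319, and between 0.158 and 0.514 in 12 alternatives). The 2A copy thus held 92.1% and 100% of the set's FPKM in white replicates 1 and 2, and 0% in every purple library. The 2B copy held 54.9%, 65.1% and 100% in purple replicates 1, 2 and 3.

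The description of chalcone synthase 8 that TraesCS4D02G351300 has is carried by 6 genes, 4 on chromosome 4B, 1 on 4D and 1 on 5A. In bread wheat the end of the long arm of chromosome 5A derives from chromosome 4A by an old translocation, so a copy there is in the usual place of an A copy. TraesCS5A02G526900 (5A, 687655022 to 687656737) had 565, 1421 and 1460 counts in white and 0, 0 and 113 in purple libraries. Its level averaged 8.04 ± 3.36 FPKM in white libraries and 0.272 ± 0.472 in purple ones (SD, n = 3 each). The log2 difference of -4.74 ± 1.82 (SE) missed the threshold (edgeR adjusted p = 0.160, and between 0.00750 and 0.311 in 14 alternatives). Leaving out purple replicate 3 brought the gene past it, as lower in purple grain (edgeR adjusted p = 0.00930). With all libraries kept, limma called it lower at pseudocounts of 1 and 0.1 (limma adjusted p = 0.00750 and 0.0184). The ratio of the 4D to the 5A copy was 1.65, 1.51 and 1.90 in the white libraries and 0.956 in purple replicate 3. The 4 genes on 4B had at most 50 counts in any library and 0 in purple replicates 1 and 2, and none was tested.

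**Figure D2:**
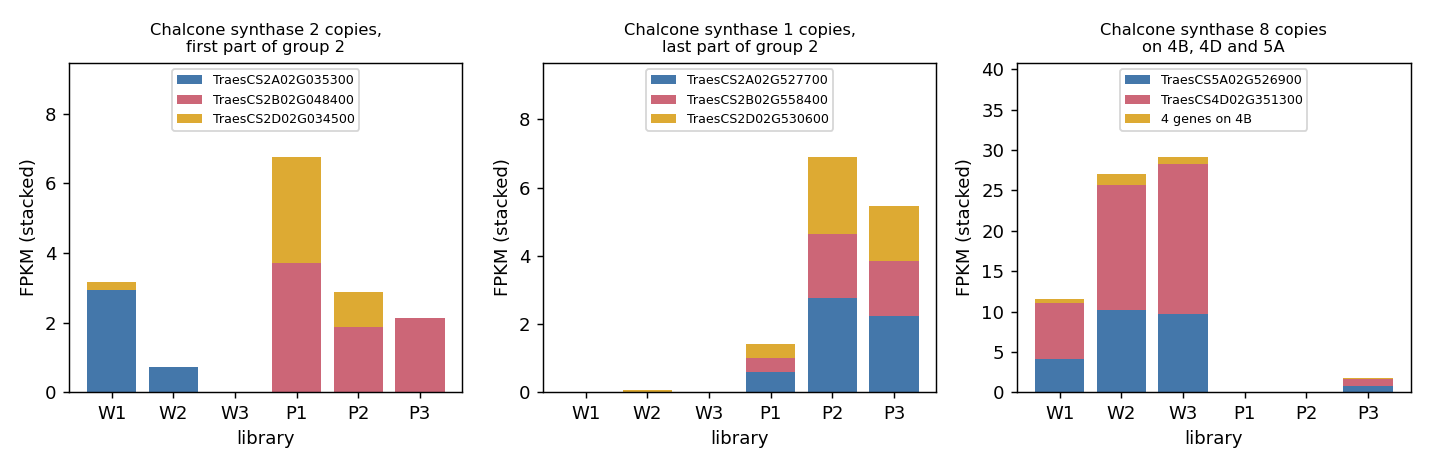
Stacked FPKM (vertical axes) of the copies in the chalcone synthase 2, 1 and 8 sets in the 3 white (W1 to W3) and 3 purple (P1 to P3) libraries. In the chalcone synthase 2 set the 2A copy is seen in W1 and W2, the 2B copy in the purple libraries and the 2D copy in W1, P1 and P2. The chalcone synthase 1 copies keep similar proportions over the purple libraries, and the chalcone synthase 8 genes are at 0 in purple replicates 1 and 2.

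Summed by KO number, the 40 genes with K00660 reached 3.29, 0.886 and 0.202 FPKM in white replicates 1, 2 and 3 and 8.49, 10.0 and 8.04 in purple ones. The 27 genes of the family with K17212 reached 12.5, 30.3 and 29.4 FPKM in white and 4.92, 1.34 and 1.98 in purple libraries. These 27 were taken in by description, whereas the K00660 sum holds every gene with its number. The genes with either number come to 100 in all, and K17212 genes outside the family are not summed here. The K00660 sum was higher and the K17212 sum lower in every purple library than in every white one. These sums include the chosen genes and carry no test. The 3 chosen K00660 genes held 55.5%, 65.2% and 74.5% of the K00660 sum in the purple libraries and 0% in the white ones, and TraesCS4D02G351300 held 50.8% to 63.0% of the K17212 sum in the white libraries.

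**Figure D3:**
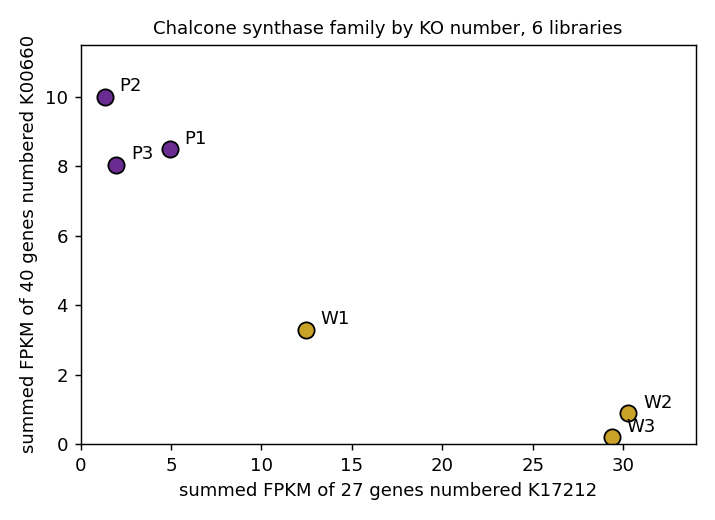
Summed FPKM of the 27 family genes numbered K17212 (horizontal axis) and of the 40 genes numbered K00660 (vertical axis), with each point a white (W1 to W3) or purple (P1 to P3) library. White libraries lie at 12.5 to 30.3 and 0.202 to 3.29 FPKM, and purple libraries at 1.34 to 4.92 and 8.04 to 10.0 FPKM.

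Over the whole family the summed level was 16.1, 31.6 and 30.1 FPKM in white and 16.0, 12.7 and 10.8 in purple libraries. TraesCS4D02G351300 held 51.0% ± 9.55 of it in white libraries and 2.41% ± 4.18 in purple ones (SD, n = 3 each). In purple grain TraesCS2B02G048400 held 19.2%, TraesCS2A02G527700 15.4% and TraesCS2B02G558400 10.8% on average. The 65 genes outside the choice summed to 12.3 ± 3.56 FPKM in white libraries and 7.18 ± 3.74 in purple ones, with groups that overlapped (exact two-sided permutation p = 0.2, n = 3 each). With 3 libraries a group this test cannot go below 0.1, so it could not have passed. Counting only the 37 other genes with K00660 turned the difference from -5.17 to 1.64 FPKM (exact two-sided permutation p = 0.2, n = 3 each). Of the other tested K17212 genes, TraesCS5A02G526900 is described above and TraesCS6D02G278200 stood at 1.27 ± 1.38 and 1.60 ± 1.59 FPKM (SD, n = 3 each; edgeR adjusted p = 0.810), with groups that overlapped.

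The 108 counts of TraesCS4D02G351300 in purple replicate 3 came to 5.74% of its white mean FPKM. Among tested genes, 190 had at least 100 counts in each white library and 0 in purple replicates 1 and 2 (0.392%). Of these 190, 66 had counts in purple replicate 3, or 34.7%, at a median of 5.84% of the white mean (quartiles 2.49% and 15.7%). The 66 include TraesCS4D02G351300 itself, which was near their middle, and its copy TraesCS5A02G526900. When purple replicate 1 or 2 was the library set against the other purple libraries, the share with counts was 12.7% and 6.77%. In the converse comparison, of genes with at least 100 counts in each purple library and 0 in the other white libraries, white replicate 1 had counts for 57.8% of 313, white replicate 2 for 20.5% of 166 and white replicate 3 for 12.0% of 150. Endosperm markers held 21.3% of summed FPKM in purple replicate 3, where the other purple libraries had 8.23% and 9.0% and white grain had 10.5% to 19.4%. Green tissue markers held 0.0262%, where the other purple libraries had 0.00544% and 0.0037% and white grain had 0.0307% to 0.0364%. Late embryogenesis abundant genes, 14 of 16 with counts, held 0.0792%, against 0.225% and 0.262%, and 0.0478% to 0.0677%; no gene in the table is described as oleosin. Histone H4 genes, markers of dividing cells, held 0.0504%, against 0.0443% and 0.0251%, and 0.0203% to 0.0518%. Between the grain types edgeR called 18 of 96 tested endosperm markers lower and 3 of 13 tested embryo and aleurone markers higher in purple grain, beside 2.32% and 2.87% of all tested genes. It called 0 of 34 tested green tissue markers and 0 of 34 tested histone H4 genes in either direction. The part of these marker differences in the levels of the chalcone synthase genes was not tested.

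**Figure D4:**
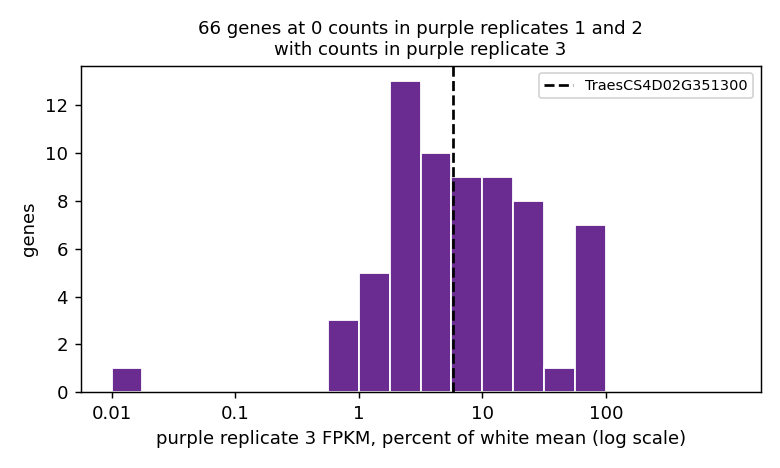
Number of genes (vertical axis) by their level in purple replicate 3 in percent of the white mean (horizontal axis, log scale), for the 66 genes with at least 100 counts in each white library, 0 counts in purple replicates 1 and 2 and counts in purple replicate 3. The dashed line marks TraesCS4D02G351300, which is among the 66, at 5.74%, beside a median of 5.84%.

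Genes next to the chosen genes were read in the same libraries. Within 1 Mb on either side lay 182 genes outside the family, of which 62 were tested. Of these, 2 were higher (3.23%) and 0 lower in purple grain by edgeR, near the 2.87% and 2.32% of all tested genes. Before adjustment 11 lay above and 4 below 0 at a p under 0.05, beside 14.2% and 12.6% of all tested genes, and DESeq2 called 6 higher and 2 lower, beside 9.41% and 6.2%. Their median log2 difference was 0.11, beside 0.02 over all tested genes. The count of higher neighbours was 0 without white replicate 2 or purple replicate 2, 1 without white replicate 3, and 4 without white replicate 1 or purple replicate 3, where leaving out the latter also gave 1 lower neighbour.

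The gene that starts 2.3 kb beyond the start of TraesCS2B02G048400, TraesCS2B02G048500, is numbered K15919, has no informative description and was counted in every library, at 1.07 ± 0.384 FPKM in white libraries and 1.86 ± 0.376 in purple ones (SD, n = 3 each; edgeR adjusted p = 0.147). On the other side, TraesCS2B02G048200 stood at 8.74 ± 4.34 and 4.41 ± 2.58 FPKM (SD, n = 3 each; edgeR adjusted p = 0.352). The higher neighbour of this window was TraesCS2B02G049200, described as a cytosolic acetyl-CoA acetyltransferase, an enzyme that condenses acetyl-CoA units. It had 1.11, 0.981 and 0.431 FPKM in white and 6.35, 4.21 and 6.49 in purple libraries, a log2 difference of 2.86 (edgeR adjusted p = 0.0191, and between 1.57e-08 and 0.0739 in 14 alternatives). Leaving out white replicate 2 or purple replicate 1 or 2 ended its call.

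Beside TraesCS2A02G527700 and TraesCS2B02G558400 lie genes described alike as galacturonosyltransferase 10, an enzyme family of pectin synthesis. TraesCS2A02G527600 stood at 5.11 ± 0.617 FPKM in white libraries and 3.93 ± 0.665 in purple ones (SD, n = 3 each; edgeR adjusted p = 0.411). TraesCS2B02G558300 stood at 1.99 ± 0.596 and 0.90 ± 0.12 FPKM (SD, n = 3 each; edgeR adjusted p = 0.0852). On the other side the receptor-like kinase gene TraesCS2A02G527800 stood at 0.461 ± 0.578 and 1.24 ± 0.908 FPKM (SD, n = 3 each; edgeR adjusted p = 0.472). TraesCS2B02G558700, with no informative description, ran from 51.3 to 979 FPKM in white and from 1.86 to 370 in purple libraries (edgeR adjusted p = 0.732). EdgeR called no tested gene in either window, with 3 above and 3 below 0 in all at a p under 0.05 before adjustment. DESeq2 called 1 gene higher in the 2A window, TraesCS2A02G528700, named after its values were seen, and 1 lower in the 2B window, TraesCS2B02G558300 (DESeq2 adjusted p = 0.0162).

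The nearest neighbour of TraesCS4D02G351300, TraesCS4D02G351200, starts 5.95 kb before it. It has no informative description and carries K13262, a number of isoflavone O-methyltransferases, enzymes that methylate flavonoids. It had 1.94, 2.56 and 5.24 FPKM in white and 0, 0 and 0.621 in purple libraries. The groups did not overlap, and the log2 difference of -3.82 missed the threshold (edgeR adjusted p = 0.191, and between 0.0246 and 0.388 in 14 alternatives). Leaving out purple replicate 3 brought it past the threshold (edgeR adjusted p = 0.0246), as did limma at pseudocounts of 1 and 0.1 (limma adjusted p = 0.0251 and 0.0351). On the other side, 83.3 kb away, TraesCS4D02G351400, which encodes a mitochondrial OXA1 membrane insertion protein, stood at 13.8 ± 1.01 and 13.4 ± 1.87 FPKM (SD, n = 3 each; edgeR adjusted p = 0.891). The called gene of the window, TraesCS4D02G349600, carries K01568, the number of pyruvate decarboxylase, and was higher in purple grain, at 0.00579 ± 0.01 and 1.29 ± 0.154 FPKM (SD, n = 3 each; edgeR adjusted p = 0.0184, and between 3.61e-12 and 0.0576 in 12 alternatives). Leaving out white replicate 2 or 3 ended its call.

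**Figure D5:**
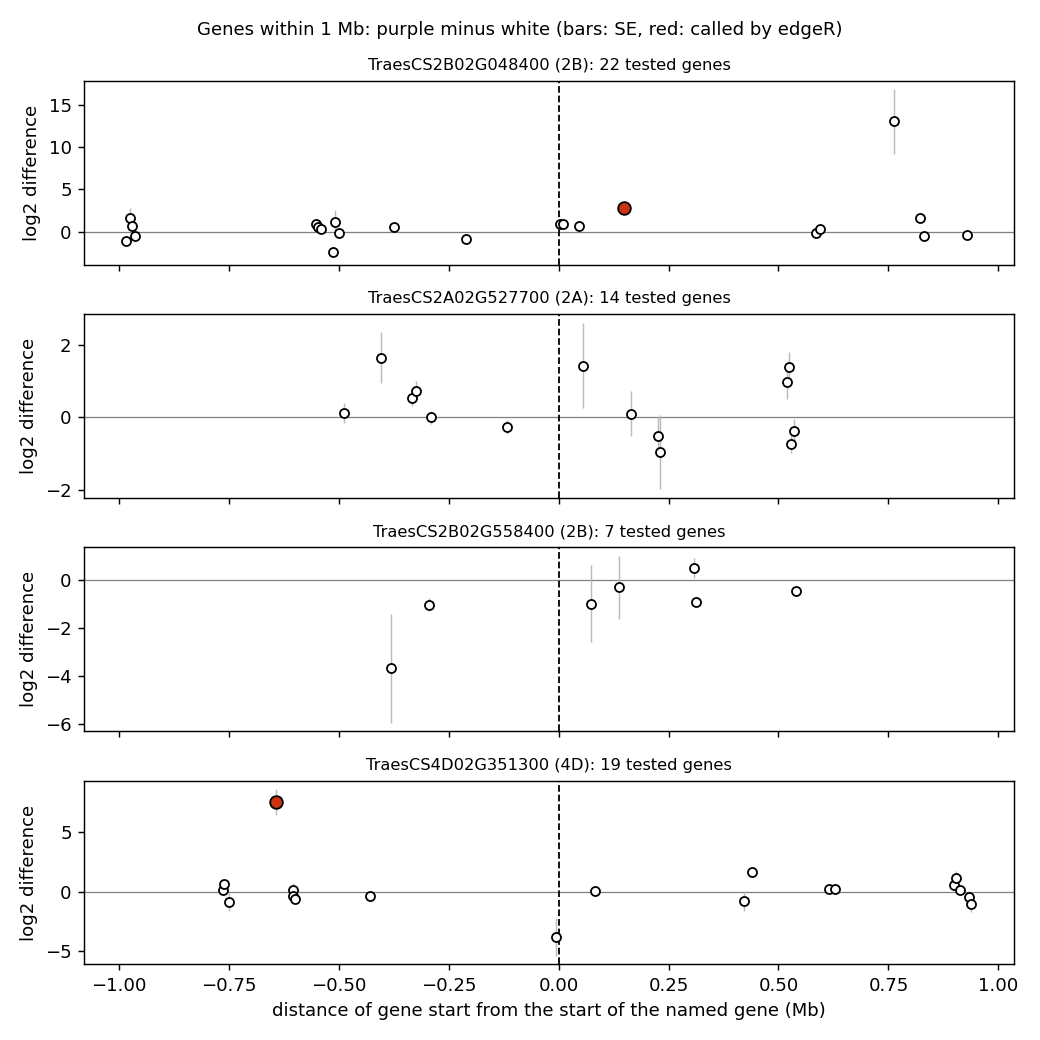
Log2 difference, purple minus white (vertical axes, bars for the SE), of tested genes within 1 Mb of each chosen gene, by the distance between gene starts in Mb (horizontal axis); the dashed line marks the chosen gene. Red points are the 2 genes called by edgeR, TraesCS2B02G049200 and TraesCS4D02G349600; fitted values of genes listed at 0 throughout a grain type are not measured folds.

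Profiles were compared by how each gene's summed FPKM was shared out over the 6 libraries, likeness being the overlap of 2 such profiles in percent. Among 18017 tested genes with an informative description, the profile most like both chalcone synthase 1 genes was that of TraesCS5A02G008800, described as a cytochrome P450, a large family of oxygenases. Its overlap was 99.4% with TraesCS2A02G527700 and 99.6% with TraesCS2B02G558400, which overlapped with each other at 99.0%. TraesCS5A02G008800 had 0 FPKM in white and 1.78, 8.60 and 7.14 in purple libraries. TraesCS2B02G048400 was most like TraesCS7B02G373900, a BTB/POZ and MATH domain gene (97.5%), and TraesCS3A02G280700, described as caleosin, an oil body protein (97.0%). TraesCS4D02G351300 was most like TraesCS5B02G022000, a putative invertase inhibitor gene (96.2%), and TraesCS1B02G147700, described as the transporter ABCG12 (95.8%), and overlapped at 94.6% with its copy TraesCS5A02G526900. Between TraesCS2B02G048400 and the chalcone synthase 1 genes the overlap was 62.7% and 62.2%. Per chosen gene, the median overlap with all other tested genes was 41.0% to 51.8%. Of the 18017 genes, 21 to 41 overlapped with a chosen gene at 90% or more. These are descriptions over 6 libraries that differ in grain type and in total counts.

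Other steps of the pathway, taken by KO number, held 510 genes outside the family, 204 of them tested. Of these, 6 were higher (2.94%) and 4 lower (1.96%) in purple grain by edgeR, close to the 2.87% and 2.32% of all tested genes, and their median log2 difference was 0.35 beside 0.02. DESeq2 called 33 of the 204 higher and 11 lower. Its share of higher genes lay above the 9.41% of all tested genes, and its share of lower genes below the 6.2%. Flavonol synthase gave 18 of the higher genes and cinnamate 4-hydroxylase 5. Directly after chalcone synthase, chalcone isomerase had 0 called genes of 4 by edgeR, 0 with an edgeR p under 0.05 before adjustment, and 0 by DESeq2. These leave out TraesCS7B02G038200, which carries the same KO number but was counted with the family because of its description. It was higher in purple grain by DESeq2 (DESeq2 adjusted p = 0.0299), with an edgeR p of 0.0301 before adjustment and 0.144 after it. Upstream, cinnamate 4-hydroxylase had 1 higher of 12, TraesCS2D02G300200, at 2.35 and 38.8 FPKM (edgeR adjusted p = 0.0196). Before adjustment 7 of these 12 lay above 0 at a p under 0.05, DESeq2 called 5 higher and 0 lower, and their median log2 difference was 2.19. Phenylalanine ammonia-lyase had 0 of 32 by edgeR, while before adjustment 1 gene above and 1 below 0 had a p under 0.05, and DESeq2 called 2 higher and 1 lower. Flavonol synthase had 5 higher and 1 lower of 64 by edgeR, 17 above and 5 below 0 at a p under 0.05 before adjustment, and 18 higher and 4 lower by DESeq2, with TraesCS1D02G319700 the first by adjusted p (edgeR adjusted p = 0.00761; listed at 0 in white and 5.00 FPKM in purple grain). The others lower were 2 of 30 genes for 4-coumarate-CoA ligase, with TraesCS4A02G036200 at 5.32 and 1.83 FPKM (edgeR adjusted p = 0.0157), and 1 of 22 with the number of anthocyanidin reductase, TraesCS2D02G482100, at 1.57 and 0.181 FPKM (edgeR adjusted p = 0.0213). Before adjustment 4-coumarate-CoA ligase had 4 genes above and 2 below 0 at an edgeR p under 0.05. DESeq2 called 2 of its genes higher and 2 lower, and its median log2 difference was 0.24. Anthocyanidin reductase had 0 above and 2 below 0 before adjustment, and 0 higher and 1 lower by DESeq2. The 7 remaining steps by KO number, from flavanone 3-hydroxylase to anthocyanidin glucosyltransferase, had 0 called genes of 40 by edgeR. Descriptions of called genes counted above name such steps as well. TraesCS1D02G319700 is described as flavonol synthase/flavanone 3-hydroxylase and TraesCS2D02G482100 as leucoanthocyanidin reductase. Of the 40, 7 lay above and 5 below 0 at an edgeR p under 0.05 before adjustment, and DESeq2 called 6 higher and 3 lower. Over all tested genes these shares were 14.2% and 12.6% before adjustment and 9.41% and 6.2% by DESeq2. Leaving out purple replicate 2 ended the calls of TraesCS2D02G300200, TraesCS4A02G036200 and TraesCS2D02G482100. Leaving out white replicate 3 did so too, white replicate 2 ended those of TraesCS4A02G036200 and TraesCS2D02G482100, and purple replicate 1 those of TraesCS2D02G300200 and TraesCS2D02G482100. The list had 7 higher and 6 lower genes without white replicate 1. These counts were 2 and 0 without white replicate 2, and 3 and 1 without white replicate 3. They were 1 and 4 without purple replicate 1, 1 and 1 without purple replicate 2, and 14 and 9 without purple replicate 3.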

How the data were processed

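RNA sequencing libraries of grain, 3 white and 3 purple, were analysed from a single deposited table. Per the labels' protocols, extraction used Trizol and library preparation a standard Illumina protocol; per the submitters' processing notes, cutadapt, HISAT2 and StringTie were used. What each tool did, its version, the use of strand, the genome build and the gene annotation are not given in the sources used here. The table holds, per the file headers, a whole-number count and the authors' FPKM for each gene and library; FPKM written as 0.0001 at a count of 0 was read as 0. Coordinates, descriptions and KO numbers are the table's, and 0 identifiers matched the reference gene table. A further 12 measurement columns match no labelled sample and were not used. Sequences of the genes were not used here.

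Genes averaging 0.5 FPKM or more (48492 genes) were tested on their counts with edgeR 4.0.16 in R 4.3.3 (TMM scaling, trended dispersion, quasi-likelihood test, Benjamini-Hochberg adjustment, no replicate block). Calls needed a log2 difference of 1 or more in either direction at an adjusted p below 0.05. An SE is the log2 difference divided by the square root of F. DESeq2 1.42.0 and limma 3.58.1 were alternatives, as were other filters, scalings, windows and sets of libraries. The edgeR, DESeq2 and limma fits were first run on simulated counts, and the other steps were not tested on simulated data. Summed FPKM was compared by an exact permutation test. The 4 genes, the lists and the tests were chosen with earlier results of these data known. Genes named are the 4, the other tested family genes, the nearest tested and called neighbours, the 2 most alike profiles with an informative description, and the first called gene per pathway KO number; others were named after their values were seen. Nothing in the labels says that replicates are separate plants, so the p-values rest on a spread that may be technical. Replicates differed by more than counting noise in every pair.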

Additional observations from a re-analysis of the deposited data

How the results depend on the processing

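The direction of the 4 chosen genes is fixed by their choice. Left-out libraries gave purple minus white differences of 2.01 to 2.93 FPKM for TraesCS2B02G048400, 1.42 to 2.50 for TraesCS2A02G527700, 1.00 to 1.75 for TraesCS2B02G558400 and -16.7 to -10.9 for TraesCS4D02G351300. By KO number K00660 alone the purple share of TraesCS2B02G048400 was 29.7%, and the summed level of the other genes turned to 1.64 FPKM.

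Counts of calls moved more. DESeq2 called 4561 genes higher and 3008 lower over all genes, 2 higher other family genes, 6 higher and 2 lower neighbours, and 33 higher and 11 lower pathway genes. With limma, 1 other family gene and 1 neighbour were lower at a pseudocount of 1. At a pseudocount of 0.1, 2008 genes were lower in all, 1 other family gene was higher and 1 lower, and 2 neighbours were lower. A mean of at least 1 FPKM left 1 higher neighbour and 2 lower pathway genes, and no FPKM filter gave 10 higher pathway genes. Scaling to total counts gave 2 lower neighbours and moved the median log2 difference of all genes from 0.02 to -0.11. With no fold threshold 1 neighbour was lower. Windows of 0.5 Mb and 2 Mb held 1 and 4 higher neighbours. Without single libraries the calls ran from 229 to 2515 higher and 355 to 2417 lower over all genes, 0 to 1 lower among other family genes with 0 higher, 0 to 4 higher and 0 to 1 lower among neighbours, and 1 to 14 higher and 0 to 9 lower in the pathway.

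Deviations of same-numbered libraries correlated at 0.118, -0.00489 and 0.229, and those of differently numbered libraries at -0.222 to 0.0900. These values do not settle whether the replicate numbers pair the libraries. With the replicate block 1551 genes were higher and 996 lower, and no count for the family, neighbours or pathway moved by over 1.5 times. Among single genes, TraesCS6D02G278200 ran from -0.507 to 1.63 (log2) over left-out libraries and TraesCS2B02G558700 from -1.58 to 0.866. TraesCS4D02G351400 ran from -0.0138 to 0.212, and stood at -0.0656 with scaling to total counts and at -0.0504 and -0.0542 with limma. None of these was called.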
